A study of Mus musculus with 15 samples.

Results

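The genes described here are 32 genes of the cell division cycle, named one by one, out of 21839 genes in a mouse RNA sequencing table. They fall into 14 genes of DNA replication and entry into S phase (Mcm2, Mcm3, Mcm4, Mcm5, Mcm6, Mcm7, Pcna, Rrm1, Rrm2, Tyms, Tk1, Cdc6, Ccne1 and E2f1) and 18 genes of mitosis (Mki67, Top2a, Ccna2, Ccnb1, Ccnb2, Cdk1, Birc5, Aurka, Aurkb, Bub1, Bub1b, Plk1, Kif11, Kif20a, Cenpe, Cenpf, Cdc20 and Cdca3). All 32 were in the table and all 32 passed the filter on low counts, which kept 13887 genes for testing. Lymphatic endothelial cells, the cells that line lymphatic vessels and the sinuses of lymph nodes, were sorted from C57bl/6 mice of 10 weeks that all carried a transplanted lymphangiogenic mouse melanoma line. The cells came from the tumor itself (Tumor), from the lymph node that drains it (TdLN) or from a lymph node that does not (NdLN), with 5 libraries in each of the 3 groups. Cells were sorted by 3 surface proteins: they lacked CD45 (gene Ptprc) and carried CD31 (gene Pecam1) and gp38 (gene Pdpn). NdLN libraries are therefore nodes of tumor-bearing mice, and no group without a tumor was analysed here. The labels do not say whether a library came from 1 animal or from a pool, so a p-value here reflects variation among libraries, which may be technical.

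A dividing cell first licenses its origins of replication by loading the ring-shaped MCM helicase, then copies its DNA with the sliding clamp PCNA and with nucleotides supplied by ribonucleotide reductase, thymidylate synthase and thymidine kinase. Most of these genes are targets of E2F transcription factors. Genes of mitosis are expressed later, in G2 and M phase, and are held off in resting cells by the DREAM complex, which recognises a short element called CHR (cell cycle genes homology region), often together with upstream CCAAT boxes that bind NF-Y. Lymphatic endothelium of a resting node divides little, and it grows when a node enlarges or when a tumor makes lymphatic growth factors.

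Because the members moved together, their promoters were read from RefSeq (build GRCm38.p6), in which 28 of the 32 genes matched a window from 250 bases before to 50 bases after the start of transcription. Ccna2, Kif20a, Mcm4 and Aurkb had no entry. Stretches of 160 bases are shown for 3 mitosis genes and 3 replication genes, 5′ to 3′ on the strand of the gene. They are chosen examples, and counts over all 28 genes follow below. Capitals mark the CHR letters (TTTGAA or TTCGAA), the CCAAT letters and the E2F letters (TTTCGCGC or TTTGGCGC), each on either strand, so a CHR can read TTCAAA and a CCAAT box ATTGG. Top2a, whose product untangles sister chromatids, is at chr11:99024190-99024349 on the minus strand. Kif11, the motor that separates the spindle poles, is at chr19:37376222-37376381 on the plus strand. Cdc20, the activator that starts anaphase, is at chr4:118437353-118437512 on the minus strand, and its stretch stops 9 bases before the RefSeq start. Mcm5 is at chr8:75109349-75109508 on the plus strand and Mcm6 at chr1:128359706-128359865 on the minus strand, both subunits of the helicase. Rrm1, the large subunit of ribonucleotide reductase, is at chr7:102441535-102441694 on the plus strand.
Top2a: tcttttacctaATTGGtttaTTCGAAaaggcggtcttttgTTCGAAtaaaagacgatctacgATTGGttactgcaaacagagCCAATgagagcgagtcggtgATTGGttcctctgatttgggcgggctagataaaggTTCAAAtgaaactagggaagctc
Kif11: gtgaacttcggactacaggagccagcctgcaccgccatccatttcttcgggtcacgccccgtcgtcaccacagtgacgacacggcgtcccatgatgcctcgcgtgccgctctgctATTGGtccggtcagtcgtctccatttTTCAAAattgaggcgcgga
Cdc20: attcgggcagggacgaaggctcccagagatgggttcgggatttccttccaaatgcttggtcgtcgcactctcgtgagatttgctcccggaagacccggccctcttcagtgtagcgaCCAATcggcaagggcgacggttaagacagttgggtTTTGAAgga
Mcm5: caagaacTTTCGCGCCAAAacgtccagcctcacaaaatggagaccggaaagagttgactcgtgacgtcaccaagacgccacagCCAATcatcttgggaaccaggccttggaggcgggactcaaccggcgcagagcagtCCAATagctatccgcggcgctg
Mcm6: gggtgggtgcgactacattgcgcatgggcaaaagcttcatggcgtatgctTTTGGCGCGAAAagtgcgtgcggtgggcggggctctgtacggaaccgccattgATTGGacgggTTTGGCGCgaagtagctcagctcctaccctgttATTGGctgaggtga
Rrm1: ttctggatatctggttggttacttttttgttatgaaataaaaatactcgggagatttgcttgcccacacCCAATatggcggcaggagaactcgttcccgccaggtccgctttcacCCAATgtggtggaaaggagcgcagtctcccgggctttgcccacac
The Top2a stretch held 3 CHR matches and 4 CCAAT matches, whereas those of Kif11 and Cdc20 held 1 of each. The Mcm5 stretch held 2 E2F matches that overlap each other on opposite strands, and the Mcm6 stretch held 3, of which 2 overlap each other. Neither Mcm stretch held a CHR, and the Rrm1 stretch held 2 CCAAT matches and neither of the other motifs.

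Over the whole windows of 300 bases, CHR letters stood in 12 of the 15 mitosis genes with an entry and in 2 of the 13 replication genes (Mcm2 and Mcm7), against 19.2% of all 32851 promoters in the table. CCAAT letters stood in 14 of the 15 mitosis genes and in 8 of the 13 replication genes, against 37.4% of all promoters. The E2F letters were found in 4 of the 13 replication genes (Mcm3, Mcm5, Mcm6 and Mcm7) and in 1 of the 15 mitosis genes (Cdk1), against 0.813% of all promoters. A shorter E2F core of 7 letters (TTCGCGC or TTGGCGC), which every E2F match above contains, stood in the same 4 replication genes and in 3 mitosis genes (Ccnb1, Cdk1 and Mki67), against 3.89% of all promoters. Of the 12 mitosis genes with CHR letters, 11 (all but Mki67) held them within 50 bases of the start on either side, a pattern looked for after the positions were seen. None of the 13 replication genes did, and 5.31% of all promoters did. Such matches describe letters in a window and show no binding. Mcm7 entered with both of its annotated promoters.

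**Figure D1:**
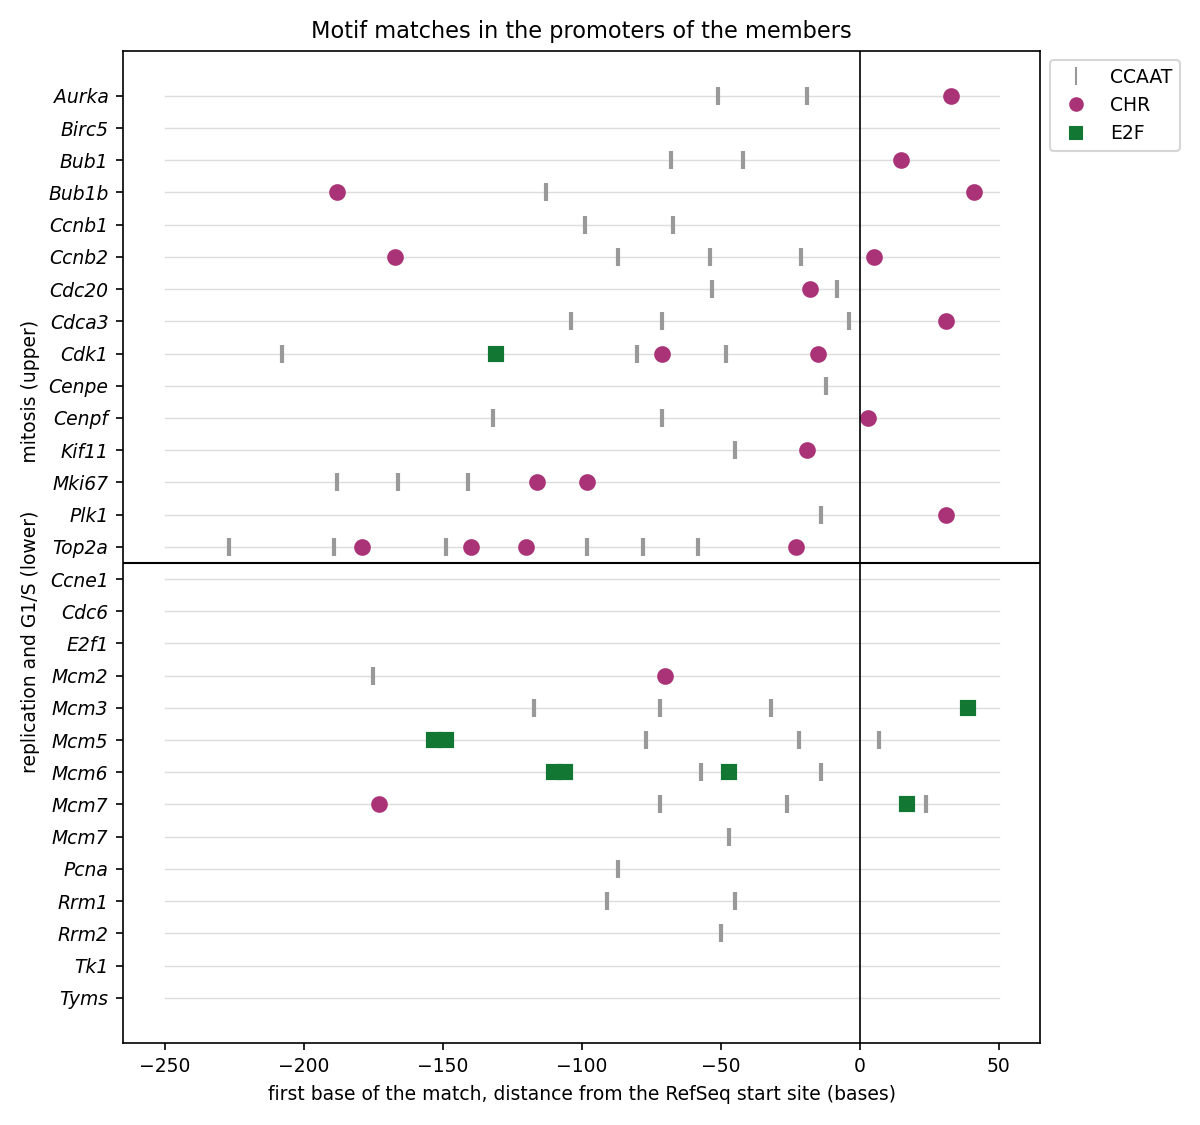
Positions of CHR (circles), E2F (squares) and CCAAT (ticks) letters, on either strand, in the RefSeq promoters of 28 members, as the distance in bases of the first base of each match from the start site, with mitosis genes above the line and replication genes below. Circles cluster around the start site of 11 of the 15 mitosis genes, and squares lie in Mcm3, Mcm5, Mcm6, Mcm7 and Cdk1.

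Total counts ran from 31894931 to 37437282 in NdLN, from 32134127 to 37043976 in TdLN and from 23830337 to 34577494 in Tumor libraries, and levels are given as CPM, reads of a gene relative to the library total times a constant, corrected by edgeR's TMM factor. Pdpn averaged 124, 120 and 116 CPM in NdLN, TdLN and Tumor, and Ptprc 5.43, 1.10 and 1.68. The Tumor libraries differed in Pdpn, at 41.0, 110, 162, 143 and 126 CPM in order of replicate. Lyve1 and Flt4, surface receptors of lymphatic endothelium, were detected in all groups at means of 652 CPM or more. The 5 Tumor libraries stood apart. Prox1, the transcription factor that defines lymphatic endothelium, fell from means of 766 CPM (NdLN) and 539 CPM (TdLN) to 105 CPM (Tumor), and Pecam1 from 1600 and 1180 to 276 CPM. The 8 pigment cell genes in the table summed to 24100 to 39600 CPM in Tumor libraries, against 17.8 to 37.6 in NdLN and 12.0 to 33.0 in TdLN. Every comparison with Tumor libraries below therefore includes RNA of genes that the sorted cell type is not known for. More cycling cells and more RNA per cycling cell cannot be told apart in these bulk libraries.

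In the draining node, all 18 mitosis genes rose above the non-draining node, by 3.15-fold (Cdc20) to 5.38-fold (Plk1), while the genes of replication rose less and less uniformly. Of the 14 replication genes, 7 rose: E2f1, Tk1, Rrm2, Ccne1, Cdc6, Tyms and Rrm1. The 6 MCM helicase genes and Pcna, with fold changes of 1.27 to 1.99, did not pass the test. In all, 25 of the 32 members were called higher and 0 lower (edgeR's quasi-likelihood test with Benjamini-Hochberg adjustment), where 1.84% of the 13887 genes tested were called higher and 1.64% lower. Every fitted fold change of a member was positive: at an unadjusted p under 0.05, 31 were higher (all but Pcna) and 0 lower, and DESeq2 and limma's voom also called 0 lower. The shares above are for adjusted calls, and the share of all genes at the unadjusted threshold is not given here.

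The largest changes among the members were those of 2 kinases of mitosis, Plk1 and Bub1, while other mitotic kinases changed less. Plk1, the polo-like kinase that drives spindle assembly and mitotic exit (chromosome 7, 122159439 to 122169873 in GRCm38), was at 7.33, 6.03, 5.12, 3.42 and 6.74 CPM in the NdLN libraries. In the TdLN libraries it was at 56.4, 40.8, 25.2, 13.9 and 17.9 CPM. The lowest TdLN library thus lay above the highest NdLN library, and the log2 fold change was 2.43 ± 0.33 (SE; adjusted p = 0.00185). Bub1, a kinase of the checkpoint that holds anaphase until chromosomes are attached (chromosome 2, 127801122 to 127831865), was at 3.70, 3.65, 3.28, 2.02 and 2.62 CPM in NdLN. It was at 28.0, 19.4, 17.0, 8.54 and 7.40 CPM in TdLN. These groups did not overlap either, with a log2 fold change of 2.39 ± 0.31 (adjusted p = 0.00168, the smallest among the members). Its partner Bub1b rose by 1.72 ± 0.31 on the log2 scale. Cdk1, the kinase that triggers entry into mitosis, was at 7.65 to 16.0 CPM in NdLN and at 18.8 to 96.0 CPM in TdLN, without overlap, and rose by 2.23 ± 0.39. The aurora kinases differed in overlap. Aurka, which matures the spindle poles, was at 5.99 to 11.0 CPM in NdLN and at 14.8 to 48.1 in TdLN. Aurkb, the kinase of the chromosomal passenger complex, was at 5.54 to 11.1 CPM in NdLN and at 9.69 to 54.4 in TdLN, so that 1 TdLN library lay below the highest NdLN library. Their log2 fold changes were close, at 1.83 ± 0.30 and 1.88 ± 0.38. Birc5 (survivin), a subunit of the same passenger complex, rose by 2.28 ± 0.38.

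The mitotic cyclins rose by similar amounts. Ccnb1 and Ccnb2, the B-type cyclins that activate Cdk1, had log2 fold changes of 2.22 ± 0.36 and 2.09 ± 0.38, with no overlap between the groups. Ccna2, the A-type cyclin of S phase and G2, was at 13.9, 12.5, 9.87, 5.57 and 10.6 CPM in NdLN. In TdLN it was at 96.2, 70.6, 10.9, 15.9 and 22.1 CPM. Its TdLN values therefore fall into 2 high and 3 low libraries, 1 of which lay within the NdLN range, and the call was the least certain among the mitosis genes (2.04 ± 0.49, adjusted p = 0.0342, but 0.0502 with limma's voom and 0.072 with only the 2 node groups fitted). The Ccna2 exons share 510 bases with Exosc9 on the opposite strand, and the counting may not separate them. Cdc20 and Cdca3, the anaphase activator and a trigger of mitotic entry, rose by 1.66 ± 0.30 and 2.13 ± 0.35.

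The motors and chromosome proteins of mitosis followed. Kif11 rose by 2.08 ± 0.32 and Kif20a, a kinesin of the central spindle and of cytokinesis, by 1.75 ± 0.29, both without overlap. Kif20a shares 1271 of its 4338 exon bases with Cdc23, on the opposite strand. Cenpe and Cenpf, which attach chromosomes to spindle microtubules, rose by 1.81 ± 0.38 and 2.03 ± 0.29. Top2a was at 32.6, 22.5, 22.4, 20.2 and 12.9 CPM in NdLN and at 173, 115, 95.3, 29.4 and 53.4 in TdLN. Here 1 TdLN library lay under the highest NdLN library, and the log2 fold change was 2.08 ± 0.37. Mki67, whose product coats mitotic chromosomes and is the usual stain for proliferating cells, was at 2.96 to 11.7 CPM in NdLN and at 10.1 to 35.3 in TdLN, and rose by 1.79 ± 0.40 (adjusted p = 0.0221). All TdLN libraries lay above all NdLN libraries for 14 of the 18 mitosis genes, with Mki67, Aurkb, Ccna2 and Top2a as the exceptions. That arrangement was found in 2.87% of all genes tested.

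**Figure D2:**
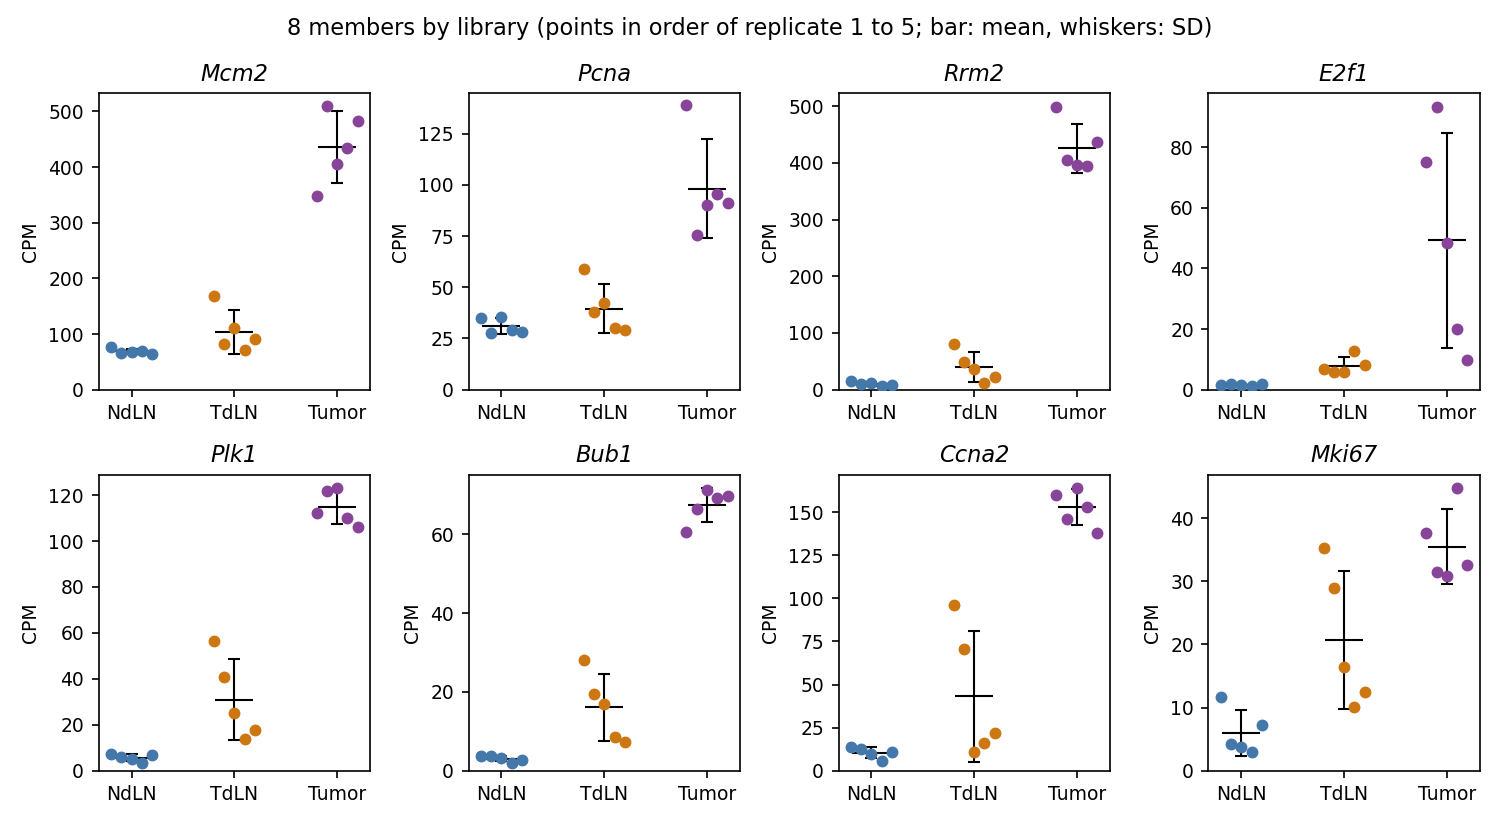
CPM of 4 replication genes (Mcm2, Pcna, Rrm2, E2f1) and 4 mitosis genes (Plk1, Bub1, Ccna2, Mki67) in each library on linear axes that start at 0, by group, with points in replicate order and bars for mean and SD (n = 5). The TdLN points of Plk1 run from 13.9 to 56.4 CPM, all above the NdLN points, whereas the lowest TdLN points of Mcm2 and Pcna lie within the NdLN range.

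The helicase genes presented another picture. Mcm2, a subunit of the helicase (chromosome 6, 88883474 to 88898780), was at 77.4, 65.1, 67.0, 69.4 and 64.8 CPM in NdLN, a narrow range. In TdLN it was at 169, 81.3, 110, 71.0 and 90.4 CPM. Of the TdLN libraries, 4 lay above all NdLN libraries and 1 within them, and the log2 fold change of 0.60 ± 0.19 did not pass the test (adjusted p = 0.108). The other helicase genes gave 0.54 ± 0.18 (Mcm3), 0.59 ± 0.18 (Mcm4), 0.67 ± 0.18 (Mcm6), 0.72 ± 0.19 (Mcm7) and 1.00 ± 0.29 (Mcm5), with adjusted p from 0.0548 to 0.125. A p above 0.05 does not show that these genes were unchanged. Mcm5 varied most among them, between 37.7 and 69.2 CPM in NdLN and between 51.6 and 208 CPM in TdLN. Pcna, the sliding clamp, had the smallest difference of all members. It was at 35.0, 27.9, 35.3, 29.0 and 28.2 CPM in NdLN and at 59.0, 37.7, 42.1, 29.9 and 29.3 in TdLN, so that 2 TdLN libraries lay inside the NdLN range (0.35 ± 0.20, adjusted p = 0.382). The annotation also holds 2 processed pseudogenes of Pcna and 1 each of Tyms, Ccnb1 and Ccnb2, whose near-identical sequence makes these counts less certain.

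The subunits of ribonucleotide reductase, the enzyme that makes deoxynucleotides, separated from each other. Rrm1, the large subunit, was at 83.8, 72.4, 73.1, 71.4 and 71.7 CPM in NdLN and at 205, 124, 135, 81.5 and 90.1 in TdLN. Only its lowest TdLN library lay below the highest NdLN library, and it rose by 0.77 ± 0.19 (adjusted p = 0.0383, but 0.0686 with only the node groups fitted). Rrm2, the small subunit, whose level is known to follow S phase, was at 14.6, 9.53, 11.7, 5.76 and 9.09 CPM in NdLN and at 81.0, 49.2, 36.3, 12.3 and 21.8 in TdLN. It rose by 1.98 ± 0.39 (adjusted p = 0.0112), or 3.95-fold, in the range of the mitosis genes. The enzymes of thymidine supply also differed in size, with 1.19 ± 0.26 for Tyms (thymidylate synthase) and 2.18 ± 0.46 for Tk1 (thymidine kinase). Cdc6, which loads the helicase onto origins, rose by 1.81 ± 0.39, from 3.06 ± 1.46 to 10.7 ± 5.93 CPM (mean ± SD, n = 5). Ccne1, the cyclin of the start of S phase, was at 0.977 to 2.35 CPM in NdLN and at 10.8, 9.07, 1.35, 2.85 and 4.81 in TdLN. TdLN library 3 lay within the NdLN range, as for Ccna2, and the log2 fold change was 1.82 ± 0.45 (adjusted p = 0.0376, but 0.0854 with limma's voom and 0.0658 with only the node groups fitted).

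E2f1, the transcription factor of the group, followed another order among the TdLN libraries than most other members. It was between 1.17 and 1.91 CPM in NdLN and at 6.90, 5.76, 5.93, 12.7 and 8.13 in TdLN. It was the 1 replication gene whose TdLN libraries all lay above the NdLN libraries, with a log2 fold change of 2.35 ± 0.49 (adjusted p = 0.0169, but 0.109 with limma's voom). The fourth TdLN library, lowest for 27 of the 32 members, held the highest E2f1 value of the TdLN group.

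**Figure D3:**
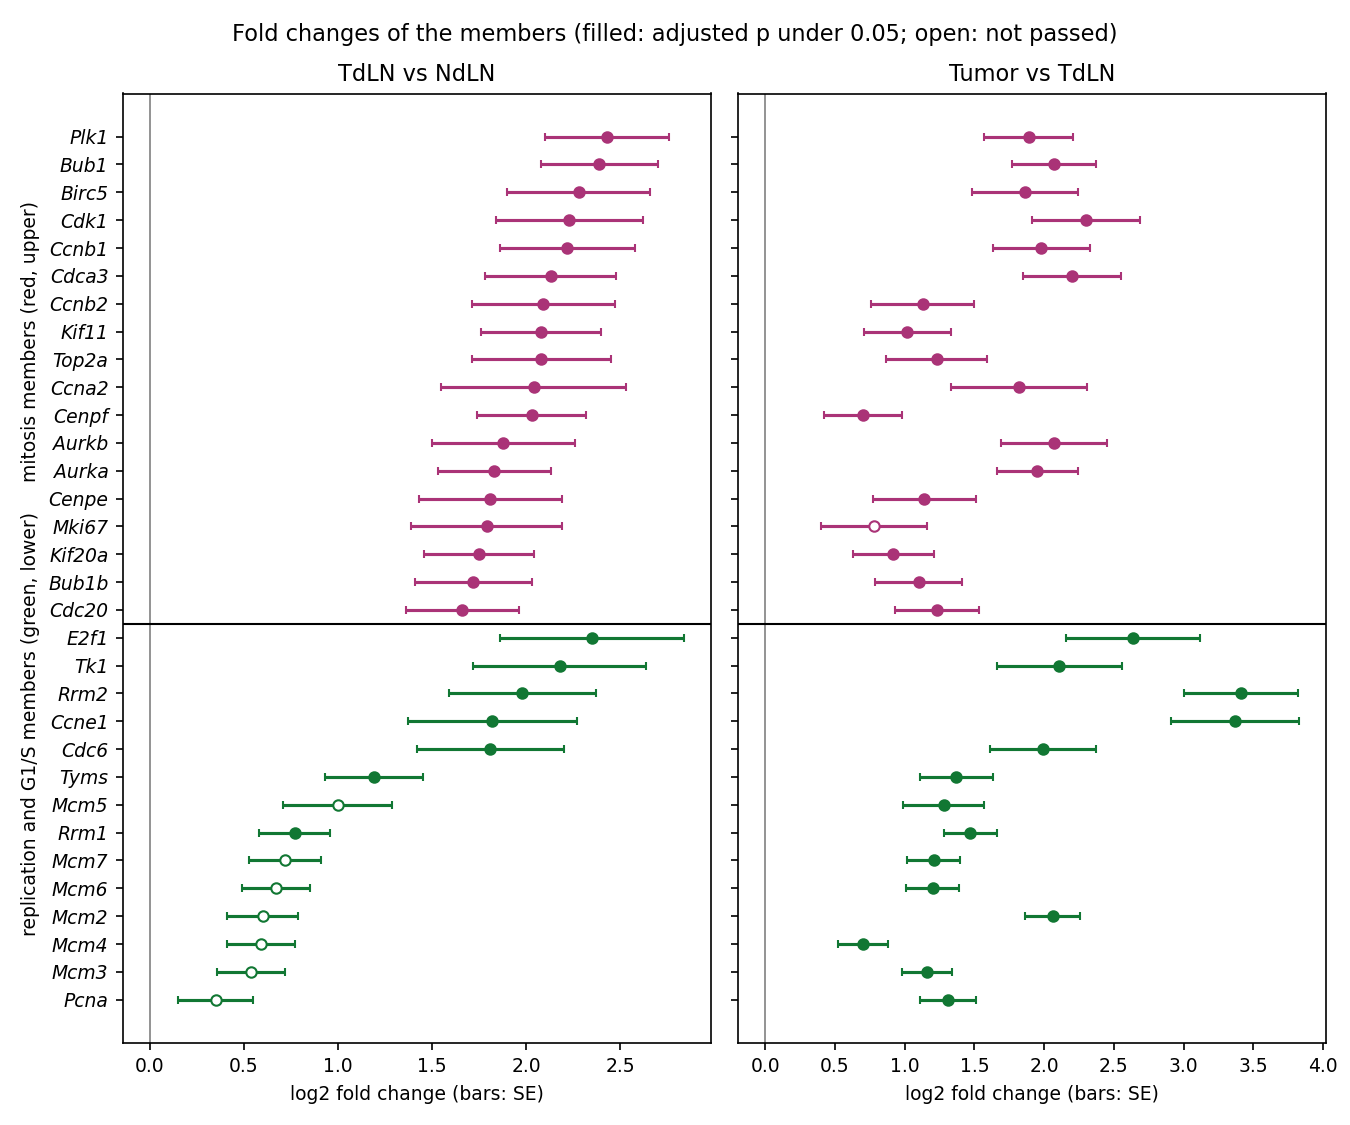
Log2 fold changes of the 32 members in TdLN against NdLN (left) and Tumor against TdLN (right), with bars for 1 SE and filled points where the adjusted p was under 0.05, replication genes in green below the line and mitosis genes in red above. On the left the mitosis genes lie between 1.66 and 2.43, and the Mcm genes and Pcna between 0.35 and 1.00 with open points. On the right the replication genes reach further (0.70 to 3.41) than the mitosis genes (0.70 to 2.30), and Mki67 is open.

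Set side by side, the median log2 fold change in TdLN against NdLN was 0.88 for the 14 replication genes (range 0.35 to 2.35) and 2.06 for the 18 mitosis genes (range 1.66 to 2.43), against -0.01 over all genes tested. The difference of medians was -1.17. With replication cut to the 9 Mcm, Pcna and Rrm genes, the median was 0.67 and the difference -1.39, and 2 of those 9 were called (Rrm1 and Rrm2). The smaller change of these genes went with a high level in the non-draining node. Per kilobase of merged exons, Mcm3 (24.5 CPM per kb), Mcm6, Mcm4 (16.4), Mcm5 (13.5) and Pcna (13.0) were the 5 highest members in NdLN. Cdc20 and Ccnb2, at 10.1 and 9.97 CPM per kb in NdLN, lay beside Mcm2 at 9.88, and changed by 3.15-fold and 4.27-fold where Mcm2 changed by 1.52-fold. That nearness rests on merged exon lengths of 1868, 1531 and 6956 bases. Not divided by length, the NdLN means were 18.9 CPM (Cdc20), 15.3 CPM (Ccnb2) and 68.8 CPM (Mcm2). Whether level set the size of the changes was not tested. In TdLN, Ccnb2 was the highest member per length (42.6 CPM per kb), ahead of Mcm6 (38.0). At the low end, Cdc6, Ccne1 and E2f1 were at 0.489 to 0.613 CPM per kb in NdLN, among the mitosis genes Cenpf, Cenpe, Mki67 and Ccnb1 (0.431 to 0.645), and their changes were in the mitosis range.

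The same contrast can be read within each library as the mean log2 CPM of the replication genes minus that of the mitosis genes. This difference was 1.21, 1.19, 1.53, 1.54 and 1.50 in NdLN libraries and 0.52, -0.03, 0.58, 0.98 and 1.01 in the TdLN libraries. It was smaller in every TdLN library than in every NdLN library. The Tumor libraries, at 0.87, 0.92, 0.84, 0.67 and 0.63, lay within the TdLN range. In summed CPM, the mitosis genes took 123 to 226 CPM in NdLN and 268 to 1120 in TdLN, without overlap. The replication genes took 520 to 683 CPM and 605 to 1630 CPM, with overlap.

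**Figure D4:**
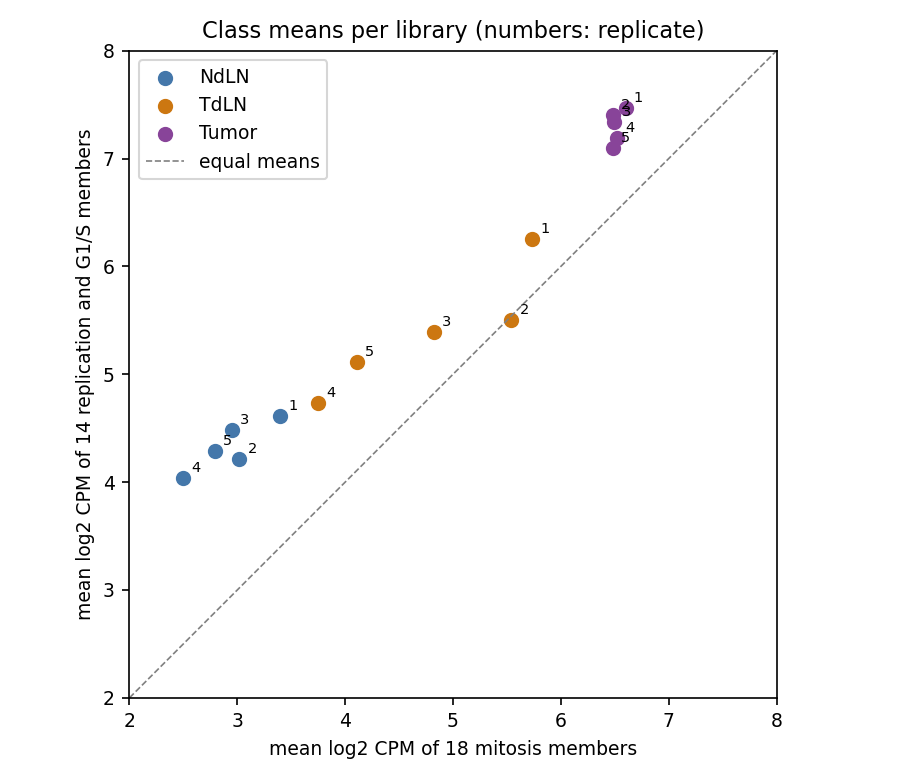
Mean log2 CPM of the 14 replication genes (vertical axis) against that of the 18 mitosis genes (horizontal axis) for each library, numbered by replicate and coloured by group, with a dashed line where both means are equal. The TdLN libraries are strung out between the compact NdLN and Tumor groups, and lie closer to the line (-0.03 to 1.01 above it) than the NdLN libraries (1.19 to 1.54).

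The members spread most widely among the draining nodes, and in both node groups many of them shared an order of libraries. The first TdLN library was the highest of its group for 27 of the 32 members (13 replication, 14 mitosis), and the fourth was the lowest for 27 (11 replication, 16 mitosis). The second TdLN library was the highest for the other 4 mitosis genes (Ccnb2, Cenpe, Cenpf and Cdc20). In NdLN, the first library was the highest for 23 members and the fourth was the lowest for 18. The share of all genes that follow these orders was not counted. The highest TdLN library exceeded the lowest by a median of 4.07-fold for mitosis genes and 2.48-fold for replication genes, against 2.10-fold and 1.54-fold in NdLN and 1.33-fold and 1.28-fold in Tumor. On the log2 scale, the median SD of a mitosis gene was 0.43 in NdLN, 0.85 in TdLN and 0.16 in Tumor. Replication genes gave 0.24, 0.51 and 0.14. The departures from the shared order in TdLN included E2f1, highest in the fourth library, and Ccna2 and Ccne1, lowest in the third.

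**Figure D5:**
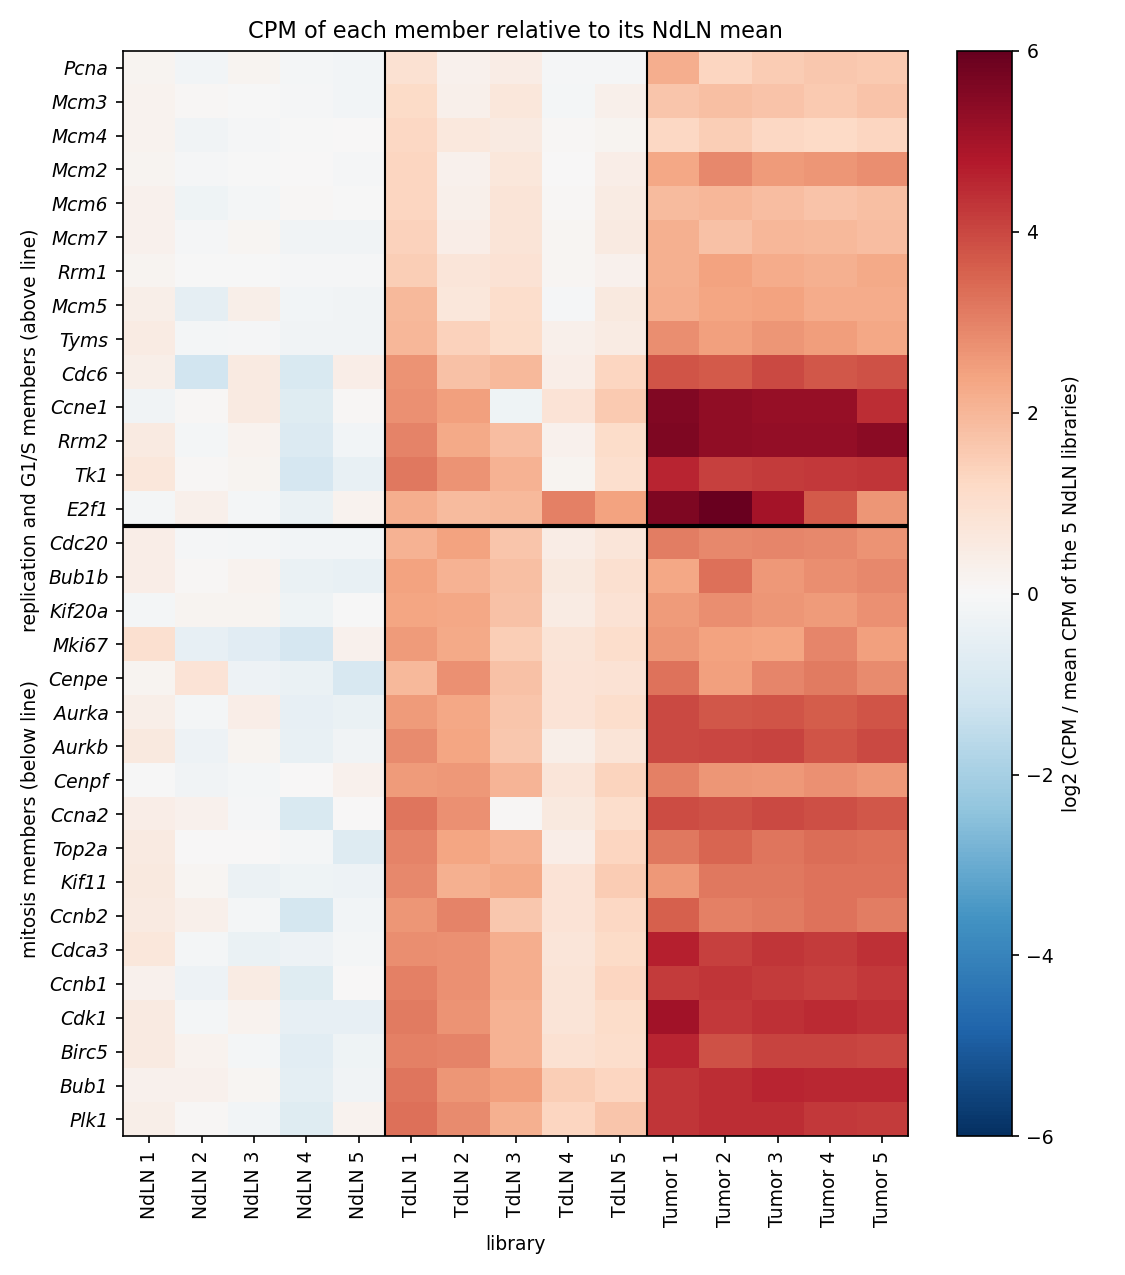
Log2 ratio of CPM to the gene's NdLN mean for the 32 members (rows, replication genes above the line and mitosis genes below, each ordered by the fold change in TdLN against NdLN) in the 15 libraries (columns). The first 2 TdLN columns come nearest to the Tumor columns, and TdLN library 4 is close to NdLN in most rows apart from E2f1, with Ccna2 and Ccne1 pale in TdLN library 3.

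Markers of other cells in the node libraries were read beside these values. The 9 T cell markers summed to 28.7 to 43.3 CPM in NdLN and to 32.5 to 58.0 in TdLN. Most of that was Lck (means of 25.6 and 40.7 CPM, called higher by 0.67 on the log2 scale), while Cd3e averaged 1.99 and 0.578 CPM, and 3 of the 9 were lower in TdLN at an unadjusted p under 0.05 (1 with DESeq2 or voom). Sums for the 7 B cell markers were 19.8 to 67.2 and 15.6 to 32.8 CPM, mostly Cd79b and Ighm, and 0 of the 6 tested were called (3 lower at an unadjusted p under 0.05, 1 lower with DESeq2). Of the 11 myeloid markers 0 were called (2 higher at an unadjusted p under 0.05, 0 with DESeq2 or voom), and Lyz2 averaged 12.8 and 10.1 CPM. The 4 plasma cell markers summed to 462 to 513 and 465 to 586 CPM. Nearly all of that was Xbp1 (means of 310 and 311 CPM) and Sdc1 (178 and 237). Sdc1 was called higher (0.41), while Jchain averaged 1.51 and 1.69 CPM and Mzb1 0.70 and 0.19 CPM, neither of them called. Fibroblast and reticular markers (10 genes) summed to 242 to 550 and 116 to 354 CPM with 0 called (1 lower at an unadjusted p under 0.05). The 8 pigment cell markers had 0 called, also at an unadjusted p under 0.05. Erythroid markers were low (means of 12.4 and 5.21 CPM in sum). Blood endothelial markers (10 genes) summed to 3550 to 6660 and 3610 to 7780 CPM, mostly Plvap and Glycam1, and Flt1, Emcn and Vwf were called lower in TdLN. In TdLN libraries 1 to 5 the T cell sum was 52.7, 42.1, 58.0, 32.5 and 37.3 CPM, nearly all of it Lck, while Cd3e was at 0.115, 0.621, 1.41, 0.394 and 0.348 CPM, lowest in library 1. Lck was thus lowest in libraries 4 and 5, which were low in mitosis genes, and Cd3e in library 1, which was high in them. The part of T cells in the result was not tested.

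The count of called replication genes rested on single libraries. It was 7 of 14 with all libraries, 3 without the first TdLN library or without the fourth NdLN library, 4 without the second TdLN library or without NdLN library 2, 3 or 5, 13 without the fourth TdLN library, and 11 with DESeq2. Mitosis calls numbered 15 to 18 under the same changes, with Ccna2, Cenpe and Mki67 among the 7 members that lost their call when at least 1 of the libraries was left out (the others being Ccne1, Cdc6, Rrm1 and Tyms).

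Other genes of the same processes, from lists that did not include the members, split in a like way. Of 40 further mitosis genes, 31 rose in TdLN against NdLN, 0 fell (0 also at an unadjusted p under 0.05, with DESeq2 and with voom) and 9 did not pass, with a median log2 fold change of 1.71. Prc1, which bundles the central spindle, rose from 14.2 ± 3.61 to 59.5 ± 27.4 CPM (2.07 ± 0.28). Melk rose by 2.38 ± 0.35, the condensin gene Ncapg by 2.24 ± 0.34 and the microtubule depolymerase Kif2c by 1.73 ± 0.26. Pttg1 (securin), the inhibitor of separase, did not follow, at 63.2 ± 2.99 and 63.8 ± 9.15 CPM (0.01 ± 0.14). It was singled out after its values were seen. Of 33 further replication genes, 9 rose, 0 fell (likewise 0 by the same 3 counts) and 24 did not pass, with a median of 0.91. DESeq2 called 19 of these 33 higher. Fen1, which trims Okazaki fragments, rose by 1.04 ± 0.20, the clamp loader subunit Rfc5 by 0.92 ± 0.19, the maintenance methylation factor Uhrf1 by 1.69 ± 0.34 and the licensing inhibitor Gmnn (geminin) by 1.29 ± 0.27.

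Genes upstream of both groups moved in either direction between the nodes. At an unadjusted p under 0.05, 4 of 12 G1 genes were higher and 2 lower, 5 of 13 regulators were higher and 1 lower, and 3 of 14 tested brakes were higher and 4 lower. The share of all genes at that threshold is not given here. The adjusted calls, given next, were fewer, and adjusted calls over all genes were 1.84% higher and 1.64% lower. Of the 12 genes of G1 progression, Ccne2, the second E-type cyclin, rose (1.49 ± 0.34, adjusted p = 0.0253), and Myc fell from 429 ± 46.4 to 235 ± 26.2 CPM (-0.87 ± 0.11, adjusted p = 0.00113). Of the 13 transcriptional regulators of the cycle, 2 rose. These were Foxm1 (1.62 ± 0.38, adjusted p = 0.0311) and Mybl2 (2.05 ± 0.49, adjusted p = 0.034), the activators of mitosis genes. Of 15 genes that restrain the cycle, 14 were tested, since Cdkn2a was at a mean of 0.389 CPM or less in every group. Btg2, an antiproliferative gene that is also induced by stress, fell from 1620 ± 246 to 661 ± 117 CPM (-1.30 ± 0.13, adjusted p = 0.000207), and Gadd45b fell from 232 ± 30.4 to 138 ± 16.9 CPM (-0.74 ± 0.13, adjusted p = 0.00627). Cdkn2c, an inhibitor of Cdk4 and Cdk6, rose (0.86 ± 0.22, adjusted p = 0.0468). The inhibitors Cdkn1a (-0.43 ± 0.16) and Cdkn1b (-0.18 ± 0.20) did not pass the test.

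In the tumor, levels of nearly all members were higher again than in the draining node, and replication and mitosis genes now had close median changes. Of the 32 members, 31 were called higher and 0 lower, where 31.9% of all genes tested were called higher and 30.1% lower, so a call in this comparison says less than one between the nodes. Mki67 was the member that did not pass, at 30.8 to 44.8 CPM in Tumor and 10.1 to 35.3 in TdLN (0.78 ± 0.38, adjusted p = 0.0907). The median log2 fold change was 1.42 for replication genes and 1.53 for mitosis genes, a difference of -0.11, against 0.04 over all genes tested. All Tumor libraries lay above all TdLN libraries for 25 of the 32 members, an arrangement found in 24.1% of all genes. All fitted fold changes of members were positive, and DESeq2 and voom called 0 lower.

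The largest changes were in genes of the start of S phase. Rrm2 was at 498, 406, 397, 394 and 437 CPM in Tumor, and exceeded its TdLN level by 10.6-fold (3.41 ± 0.41, adjusted p = 3.77e-06). Per kilobase it went from the 12th rank among the members in NdLN to the 1st in Tumor (154 CPM per kb). Ccne1, at 76.9, 64.6, 60.6, 61.4 and 34.9 CPM in Tumor, was higher by 10.3-fold (3.37 ± 0.46). Among the helicase genes, Mcm2 and Mcm4 stood apart here. Between them, the log2 fold changes of Mcm3, Mcm5, Mcm6 and Mcm7 were 1.16, 1.28, 1.20 and 1.21. Mcm2 was at 348, 510, 405, 435 and 483 CPM and rose by 2.06 ± 0.20, whereas Mcm4 was at 139, 163, 139, 133 and 144 CPM and rose by 0.70 ± 0.18 (adjusted p = 0.00282). Pcna, not called between the nodes, was at 139 and 75.3 CPM in the first 2 Tumor libraries and between these values in the others, and rose by 1.31 ± 0.20, without overlap with TdLN. Rrm1 rose by 1.47 ± 0.19.

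E2f1 was the member with the widest spread in the tumor. Its Tumor libraries were at 75.2, 93.1, 48.5, 19.9 and 9.71 CPM, a 9.59-fold range in which the lowest lay within the TdLN range, while the median range of the replication genes in Tumor was 1.28-fold. The log2 fold change was 2.64 ± 0.48. Ccne1 was also lowest in Tumor library 5.

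Among mitosis genes, Cdk1 (2.30 ± 0.39) and Cdca3 (2.20 ± 0.35) changed most in Tumor against TdLN. Plk1 was at 112, 122, 123, 110 and 106 CPM in Tumor and Bub1 at 60.5, 66.3, 71.3, 69.3 and 69.7, both far tighter than in TdLN, with log2 fold changes of 1.89 ± 0.32 and 2.07 ± 0.30. Cenpf changed least (0.70 ± 0.28, adjusted p = 0.0387, but 0.0959 with only the 2 groups fitted and 0.0636 with upper-quartile factors), followed by Mki67, Kif20a (0.92 ± 0.29) and Kif11 (1.02 ± 0.31). In single cases a TdLN library overlapped the Tumor range. Kif11 was at 42.2 CPM in the first TdLN library and at 34.6 in the first Tumor library, the other Tumor libraries being at 51.2 to 54.9, and Bub1b was at 62.6 and 60.0 CPM in the same pair.

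Against the non-draining node, all 32 members were higher in Tumor libraries and no Tumor library overlapped an NdLN library for any member. Over all genes, 34.0% were called higher, 32.5% lower, and 27.7% had every Tumor library above every NdLN library. Both comparisons with NdLN and both with Tumor share libraries, so these values are not independent of those above. Rrm2 (5.39 ± 0.45, 42.0-fold), Ccne1 (5.19 ± 0.51), E2f1 (4.99 ± 0.54) and Cdk1 (4.54 ± 0.43) had the largest changes, and Mcm4 (1.29 ± 0.18) and Pcna (1.66 ± 0.20) the smallest. The medians were 2.42 for replication and 3.54 for mitosis genes, a difference of -1.12.

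In the same comparisons, the wider lists also rose. Against TdLN, 31 of 33 further replication genes (median 1.49) and 36 of 40 further mitosis genes (median 1.37) were higher in Tumor, and 0 were lower by edgeR (0 also at an unadjusted p under 0.05, with DESeq2 and with voom). The G1 genes split. Ccnd2, a D-type cyclin, was at 20.7 ± 4.93 CPM in TdLN and 471 ± 85.9 in Tumor (4.51 ± 0.25), while Ccnd1, the D-type cyclin most abundant in the nodes, fell from 383 ± 109 to 126 ± 29.5 CPM (-1.61 ± 0.21). Cdk2 rose by 3.37 ± 0.13 and Cdk4 by 0.94 ± 0.12, and Myc fell by 1.16 ± 0.11 on the log2 scale. The Cdk2 gene overlaps the pigment cell gene Pmel by 837 bases, of which 34 lie in exons of both genes. Cdk4 shares 641 of its 3249 exon bases with Tspan31. Both overlaps are on the opposite strand, and the counting may not separate them. In all, 7 of 12 G1 genes rose and 3 fell, where 31.9% of all genes tested were called higher and 30.1% lower. With shares this large, counts in short lists such as this one and those that follow say little about the lists. Foxm1 (1.58 ± 0.38) and Mybl2 (2.43 ± 0.48) were among 5 of 13 regulators that rose, and 1 fell. Of the 14 tested brakes, 2 rose (Cdkn2d and Pkmyt1) and 4 fell, among them Btg2 to 148 ± 6.24 CPM (-2.16 ± 0.13), Gadd45b (-1.96 ± 0.14), Btg1 (-1.73 ± 0.30) and Cdkn1c (-1.84 ± 0.60).

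Markers of other cells moved with the tumor comparisons. All 8 pigment cell markers were called higher than in TdLN, led by Pmel (13100 ± 2470 CPM), Dct (7300) and Gpnmb (6080), and the defining factor Sox10 averaged 167 CPM against 0.0662 in TdLN. Of 10 fibroblast and reticular markers, 9 were higher (sums of 1350 to 10300 CPM in Tumor), and of 11 myeloid markers, 9 were higher, with Lyz2 at 53.6 CPM. T cell and B cell sums were lower, at 17.5 to 26.5 and 5.42 to 8.37 CPM, and blood endothelial sums were 856 to 1540 CPM. Single markers of these lists went both ways against TdLN. Of 9 T cell markers, 4 were called lower and 1 higher (Cd2). Of 6 B cell markers tested, 2 were called lower and 1 higher (Cd79a). Of 10 blood endothelial markers, 5 were called lower and 3 higher (Cd34, Ly6c1 and Esm1). The part of cells other than lymphatic endothelium in the tumor levels of the members was not tested.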

How the data were processed

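RNA of sorted lymphatic endothelial cells was amplified with a low-input kit that does not mark strand, per the labels' protocols. The authors deposited unnormalized read counts of 21839 genes in 15 libraries. Reads were processed with featureCounts 1.4.6, STAR 2.4 and CASAVA 1.8.2 on build GRCm38, per the submitters' processing notes. Annotation release and strand setting: not given in the sources used here. Reads of genes that overlap on opposite strands may be counted together or lost. GENCODE M21 named 21628 of the IDs, and the other 211 held 0.0859% of all counts.

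Total counts of 23830337 to 37437282 set the counting error, and because reads were amplified and carry no molecular identifier, counting error is a lower limit. Pairs of libraries within a group differed by more than sampling noise (lowest mean chi-square per gene 28.3), so each was counted once. The sequencing pool of a library is not recorded, and its effect was not tested.

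One model of all 15 libraries was fitted in R 4.3.3 with edgeR 4.0.16 (filterByExpr, TMM, robust glmQLFit and glmQLFTest), so the 3 comparisons share dispersion estimates. Genes with a Benjamini-Hochberg adjusted p under 0.05 over the 13887 tested were called. SE is the log2 fold change divided by the square root of F, log2 CPM has a prior count of 2, and lengths are merged GENCODE exons. Alternatives were RLE and upper-quartile factors, no filter, a filter of CPM 10 in 5 libraries, DESeq2 1.42.0, limma 3.58.1's voom with quality weights, only the compared groups, a replicate block, a narrower replication class and each library left out. The steps were tested on simulated data. Figures used matplotlib 3.10.9.

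The members, lists and tests were chosen with earlier results of these data known. Besides the members, the rule for named genes took up to 6 called genes of each list with the smallest adjusted p, any regulator or brake, sort markers, and the 3 most abundant genes of each marker list. The pigment list held 9 genes, of which 8 had a row here. Cd3e, Jchain, Sox10, Pttg1 and any further G1, blood endothelial or marker gene outside that rule were named after their values were seen.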

Additional observations from a re-analysis of the deposited data

Results flagged for a closer look

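Each member was checked in each group for a library far from the other 4, by the gap to the nearest library divided by the range (Dixon's criterion). Of 96 combinations of gene and group, 7 exceeded it, and chance gives about 1 in 20. In NdLN, the first library was high in 4 of them. Tyms was at 36.2 CPM there and at 22.4 to 24.7 in the others. Rrm1 was at 83.8 CPM against 71.4 to 73.1. Cdc20 was at 25.3 CPM against 16.7 to 18.1, and Cdca3 at 8.54 against 4.04 to 4.94. In Tumor, the first library was the one that stood out in the other 3. Cdk1 was at 358 CPM there and at 206 to 241 in the others, and Birc5 at 239 against 141 to 167. Kif11 was low, at 34.6 CPM against 51.2 to 54.9. The first Tumor library also had the lowest total count of its group (23830337). Its Pdpn, Pecam1, Prox1 and Flt4 values (41.0, 133, 73.5 and 246 CPM) were the lowest of that group. Lyve1, at 855 CPM in this library, was at the median of the group, and Ptprc, at 4.05 CPM, was the highest. No TdLN value was far enough from the rest of its wider group.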

How the results depend on the processing

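The number of members called higher in TdLN against NdLN was 25 with all libraries, 25 with RLE or upper-quartile factors or no filter, 26 with the stricter filter, 29 with DESeq2, 23 with voom, 22 with only the groups compared, and 18 to 31 with a library left out (18 without the fourth NdLN, 19 without the first TdLN, 31 without the fourth TdLN library). Calls over all genes numbered 484, 978 with DESeq2, 818 with voom and 225 to 564 with a library left out. Ccne1, Ccna2 and E2f1 lost their call with voom (adjusted p = 0.0854, 0.0502 and 0.109). In Tumor against TdLN the members called numbered 30 to 32, with Cenpf lost in some fits, and in Tumor against NdLN 32 throughout. No setting called a member lower. The difference of class medians ranged from -1.28 to -0.88 in TdLN against NdLN and from -0.32 to 0.02 in Tumor against TdLN with a library left out. With the class of 9 replication genes, the difference in Tumor against NdLN went from -1.12 to -1.61, by construction, since Tyms, Tk1, Cdc6, Ccne1 and E2f1 leave the class.

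Replicate numbers are shared by the groups, but the labels do not say that they pair libraries. Same-numbered TdLN and NdLN libraries deviated together at correlations of -0.094 to 0.248, 2 of 5 over 0.1, and 1 of 5 correlated best with its own number. With a replicate block, 23 members were called in TdLN against NdLN and 400 genes in all, with Rrm1, Ccne1 and Ccna2 lost (adjusted p = 0.0562, 0.0949 and 0.0597).

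Members under 5 CPM in NdLN, such as E2f1, Ccne1, Cdc6 and Bub1, rest on fewer reads than the Mcm genes.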

Other observations

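Cdk2, the kinase that partners the E-type cyclins, averaged 58.8 ± 8.01 CPM (NdLN), 68.0 ± 8.98 CPM (TdLN) and 703 ± 71.1 CPM (Tumor; SD, n = 5). Its gene (chromosome 10, 128697939 to 128705031, minus strand) and Pmel (128704195 to 128720238, plus strand) overlap by 837 bases at their ends, with 34 shared exon bases. Pmel was at 13100 ± 2470 CPM in Tumor libraries and at 4.06 ± 3.08 in TdLN. The part of Pmel transcripts in the Cdk2 counts was not tested.

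Per kilobase of merged exons, the order of the members changed between groups. Mcm4 had rank 3 in NdLN (16.4 CPM per kb) and rank 13 in Tumor (40.1), and Cdk1 had rank 21 (2.20) and rank 10 (51.2).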
